A study of Mus musculus with 12 samples.

Results

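The genes described here are Fkbp5 and 9 other genes of the glucocorticoid receptor pathway in mouse heart: Nr3c1, Tsc22d3, Zbtb16, Sgk1, Klf9, Klf15, Ddit4, Pik3r1 and Hsd11b1. They were chosen by symbol, after their levels in these hearts were known, and all 10 were found among the 17397 genes of the deposited table. All 10 also passed the filter on low counts. Their levels in all 4 groups are therefore given as a description. RNA of whole hearts of male C57BL/6J mice, 8 weeks old at the start and wild type, was sequenced in 12 libraries, 3 in each of 4 groups. Tumour trained mice received 100000 B16F10 cells through a tail vein and ran on a treadmill, tumour mice received the same cells and did not run, trained mice only ran, and control mice were labelled saline and stayed in their cages. B16F10 is a melanoma line that forms colonies in lung and other organs after such an injection, and the study used it to induce cachexia, the wasting that accompanies cancer. Running took place on 5 days per week for 4 weeks, with an adaptation in week 1 and then 5 min at 6 m/min followed by 35 min at 12 m/min, and the cells were given from week 2. Whether the trained mice also received saline, the hour of collection, and whether each library came from its own mouse are not given in the labels, so p-values measure the spread between libraries, which may be technical.

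Glucocorticoids are steroid hormones of the adrenal cortex whose level in blood follows the time of day and rises with stress and illness. In the cell, Hsd11b1 regenerates the active hormone from its inactive form. The hormone binds the glucocorticoid receptor, encoded by Nr3c1, which is held by Hsp90 and cochaperones. Fkbp5 is one of these cochaperones: it lowers the receptor's affinity for hormone and is itself strongly induced by the receptor, so that it closes a negative feedback loop. The bound receptor enters the nucleus and binds DNA at glucocorticoid response elements, and Tsc22d3, Zbtb16, Sgk1, Klf9, Klf15, Ddit4 and Pik3r1 are among the genes that it is known to induce in one tissue or another. In heart muscle the receptor is known for its part in maturation and contractile function.

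Levels are CPM (counts relative to the library total) scaled with TMM, a factor that aligns the bulk of genes between libraries (scaled CPM). They are not divided by gene length, so genes are compared between libraries and not with each other. Library totals ran between 8843909 and 13344847 counts, and 3 counts amounted to between 0.225 and 0.339 CPM. The tissue label is heart although the extraction protocol speaks of livers. The summed level of 4 hepatocyte genes was at most 7.26 scaled CPM, whereas 12 cardiomyocyte genes summed to at least 128463 scaled CPM in 10 of the 12 libraries.

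Libraries differed within groups. Summed over 5 melanocyte genes (Sox10, Pmel, Tyrp1, Dct and Mlana), tumour 1 had 8620 scaled CPM, tumour 2 had 4473 and tumour 3 had 17.5, against 5.48 to 9.03 in tumour trained, 7.01 to 7.52 in trained and 6.40 to 10.8 in control hearts. Tyrp1 was at 0 in all 9 libraries outside the tumour group. The 12 cardiomyocyte genes summed to 26767, 74220 and 133827 scaled CPM in tumour 1, 2 and 3, against 135149 to 142558 in control hearts, and 5 endothelial genes to 305, 801 and 996 against 1061 to 1098. Tumour 1 and tumour 2 thus carried melanocyte transcripts and fewer heart transcripts, and tumour 3 had a cardiomyocyte sum near those of the other hearts and a melanocyte sum that was low but above each of the 9 libraries outside the tumour group. In RNA of a whole organ, fewer cells of a type and less RNA per cell cannot be told apart. Trained 2 also stood apart, with a chi-square per gene of 30.7 and 33.0 against trained 1 and trained 3, which differed from each other by 4.37. Control 2 and control 3 had 739 and 700.0 scaled CPM of 5 immediate early genes (Fos, Fosb, Egr1, Atf3 and Junb, a list added after the data were seen), against 78.2 in control 1 and at most 286 in any other library. Values without control 2 and control 3 are given for some genes only, and other values also moved without them.

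Fkbp5 was above all 9 other libraries in each of the 3 untrained tumour hearts. Nr3c1 was below all 9 in the same 3 hearts, narrowly, with 57.3 scaled CPM in tumour 3 and 58.3 in trained 2. The share of all genes so separated from all 9 was not counted. Against the 3 controls alone, 14.2% of all genes had the tumour hearts above and 11.8% below. Pik3r1 was above all controls in the 3 tumour hearts, and Zbtb16 was above all other libraries in 2 of them. The remaining genes overlapped between tumour and control hearts or, like Sgk1, were spread among the controls.

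**Figure D1:**
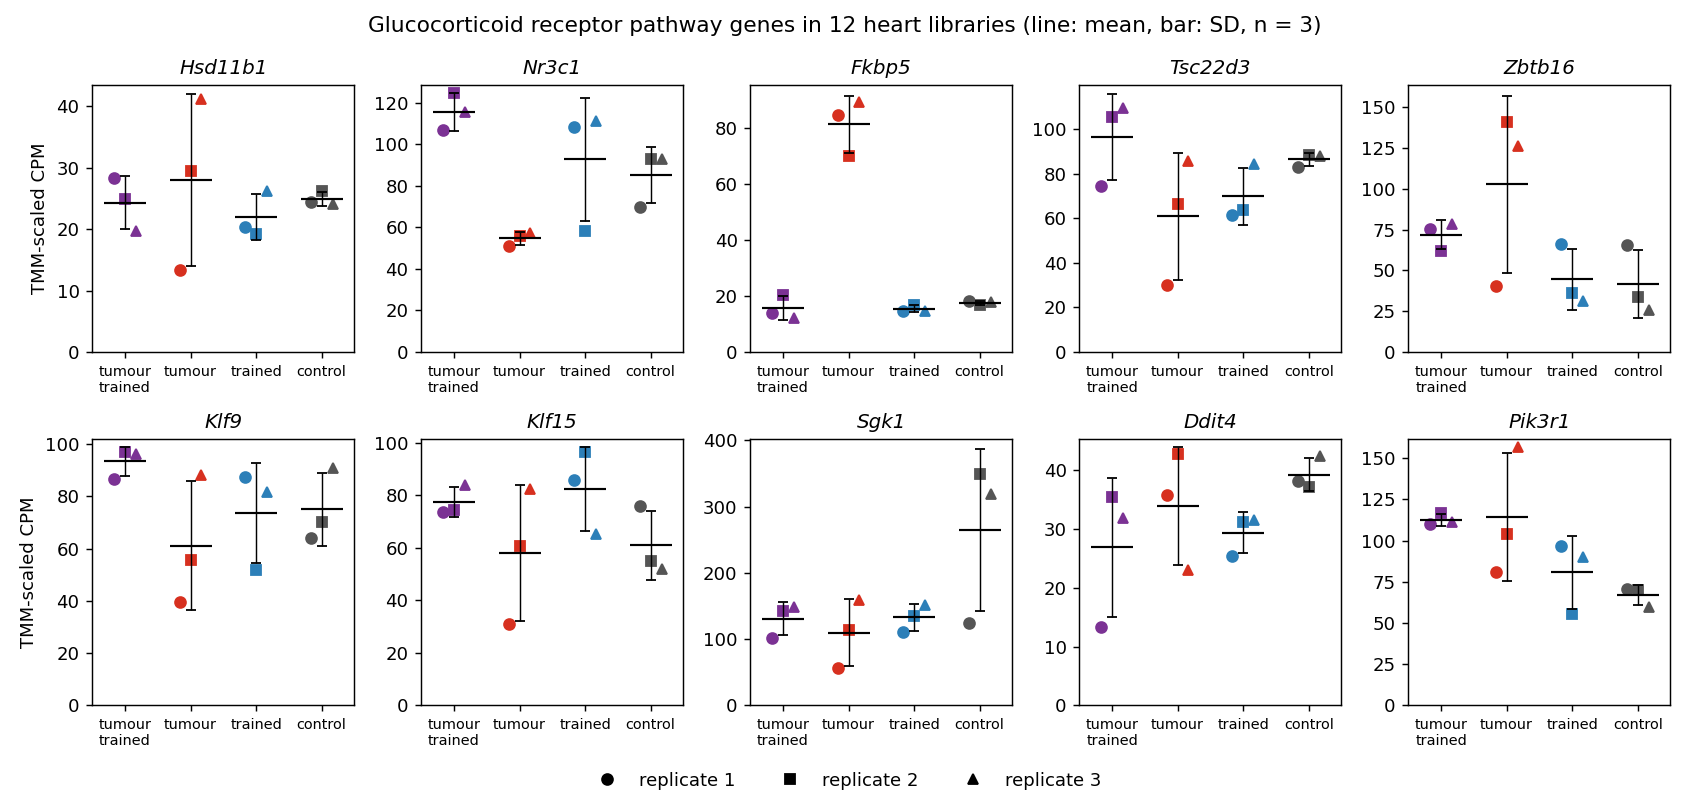
Scaled CPM of the 10 genes by group, with 1 panel per gene. Points are the 3 libraries of a group, the line is their mean and the bar is 1 SD; each linear axis starts at 0. Fkbp5 lies between 70.0 and 89.4 in tumour hearts and below 20.5 in every other library, whereas Sgk1 and Zbtb16 spread within a group.

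Hsd11b1 (gene ID 15483), which supplies active hormone inside the cell, had 28.4, 24.9 and 19.8 scaled CPM in tumour trained hearts, 13.4, 29.5 and 41.3 in tumour hearts, 20.3, 19.2 and 26.2 in trained hearts and 24.4, 26.2 and 24.0 in control hearts. The 3 tumour hearts spanned all other libraries, from the lowest value to the highest, and every group overlapped its neighbours. The log2 difference was 0.17 ± 0.32 (SE) for tumour against control and -0.20 ± 0.32 for tumour trained against tumour. Without tumour 3 both turned, to -0.26 and 0.21, and with tumour 3 alone they were 0.74 and -0.78.

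Nr3c1 (gene ID 14815), the receptor itself, had 107, 125 and 116 scaled CPM in tumour trained hearts, 51.0, 55.7 and 57.3 in tumour hearts, 109, 58.3 and 111 in trained hearts and 70.0, 93.1 and 92.9 in control hearts. The tumour hearts were the 3 lowest of the 12 libraries and the tumour trained hearts lay above all controls, while trained 2 lay just above the tumour hearts. Nr3c1 differed by -0.64 ± 0.22 on the log2 scale for tumour against control, which was not called at an adjusted p below 0.05. The log2 difference between tumour trained and tumour hearts was 1.08 ± 0.22, which was called. That call held in 6 of 20 alternatives, and the direction turned to -0.22 when libraries were scaled to cardiomyocyte genes. In tumour 3 alone, the tumour heart with the lowest melanocyte sum, the differences were -0.56 against control and 1.00 for tumour trained against it, the call for the second being lost. Without control 2 and control 3 the difference of tumour from control was -0.38.

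Fkbp5 (gene ID 14229), the cochaperone, had 14.0, 20.5 and 12.3 scaled CPM in tumour trained hearts, 84.8, 70.0 and 89.4 in tumour hearts, 14.8, 16.8 and 14.8 in trained hearts and 18.1, 16.7 and 17.8 in control hearts. The lowest tumour heart was 3.42-fold above the highest of the 9 other libraries, and the tumour hearts differed among themselves by 1.28-fold. The means were 15.6 ± 4.31 in tumour trained, 81.4 ± 10.1 in tumour, 15.5 ± 1.16 in trained and 17.5 ± 0.725 in control hearts (SD, n = 3 each). Tumour hearts were thus 4.64-fold above control (log2 2.21 ± 0.19), and tumour trained hearts were 5.22-fold below tumour (log2 -2.38 ± 0.19). The tumour trained, trained and control values overlapped, and the order of these 3 groups did not exceed their spread.

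In the tumour heart with the lowest melanocyte sum the Fkbp5 difference was as large: with tumour 1 and tumour 2 left out, and the lone library assumed to vary like the other groups, it was 2.36 for tumour against control and -2.54 for tumour trained against tumour on the log2 scale. The effect of the tumour differed with training by -2.20 ± 0.27 on the log2 scale, counted as tumour trained against trained minus tumour against control. Over alternatives the log2 difference ran from 2.10 to 3.66 for tumour against control and from -3.74 to -2.23 for tumour trained against tumour. The call for tumour against control was lost without control 2 and control 3, where the log2 difference was 2.14.

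Glucocorticoid response elements were looked for in the 300 bases around annotated starts, 250 before and 50 after, in RefSeq promoters of GRCm38.p6, which held 16 windows for 8 of the 10 genes. The full element, in which AGAACA is followed by 3 bases of any kind and then by its own reverse complement, was searched on both strands. So was AGAACA by itself (a hexamer site), which every full element contains. The full element was in 3 of 32851 windows (0.00913%), of which 1 belonged to Sgk1, and at least 1 hexamer site was in 18.97% of all windows and in 4 of the 16, which were windows of Sgk1 and Tsc22d3. In the Fkbp5 window neither was found. Only these exact letters within the 300 bases were searched, so an element farther away or with other letters would be missed. The 250 bases before 3 of these starts are shown because they hold the full element, a hexamer site only and no match, with the matching bases in capitals and each read 5′ to 3′ on the gene's strand. They lie at chr10:21993640-21993889 on the plus strand for Sgk1, where the full element spans chr10:21993701-21993715 and begins 189 bases before the start; at chrX:140600523-140600772 on the minus strand for Tsc22d3; and at chr17:28486150-28486399 on the minus strand for Fkbp5.
Sgk1: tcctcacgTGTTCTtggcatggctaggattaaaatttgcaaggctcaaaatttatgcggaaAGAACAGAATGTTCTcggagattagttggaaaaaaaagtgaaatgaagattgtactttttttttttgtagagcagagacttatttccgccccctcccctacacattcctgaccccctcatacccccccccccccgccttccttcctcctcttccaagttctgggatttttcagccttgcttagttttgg
Tsc22d3: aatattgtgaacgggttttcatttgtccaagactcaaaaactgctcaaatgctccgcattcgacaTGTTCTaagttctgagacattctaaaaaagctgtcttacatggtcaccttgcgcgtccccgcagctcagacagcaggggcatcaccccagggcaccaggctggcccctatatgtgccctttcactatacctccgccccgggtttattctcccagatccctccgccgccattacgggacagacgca
Fkbp5: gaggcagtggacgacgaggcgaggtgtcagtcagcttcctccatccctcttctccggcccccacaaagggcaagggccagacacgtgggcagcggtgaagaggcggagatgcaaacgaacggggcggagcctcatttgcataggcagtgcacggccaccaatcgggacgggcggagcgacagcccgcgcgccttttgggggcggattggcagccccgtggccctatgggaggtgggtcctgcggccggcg

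Among the 3 target genes that encode transcription factors, the 3 tumour hearts disagreed. Zbtb16 (gene ID 235320), a zinc finger repressor that glucocorticoids induce in many cells, had 75.6, 61.7 and 78.1 scaled CPM in tumour trained hearts, 40.7, 141 and 126 in tumour hearts, 65.9, 36.2 and 31.2 in trained hearts and 65.4, 33.5 and 25.8 in control hearts. Tumour 2 and tumour 3 lay above all other libraries and tumour 1 lay among the controls, of which control 1 was the highest. The log2 difference for tumour against control was 1.30 ± 0.46, 1.61 with tumour 3 alone and 0.63 without control 2 and control 3. Between tumour trained and tumour hearts it was -0.51 ± 0.46, and -0.83 with tumour 3 alone.

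Klf9 (gene ID 16601), a Krüppel-like factor that responds quickly to glucocorticoids, had 86.8, 96.9 and 96.3 scaled CPM in tumour trained hearts, 39.6, 55.8 and 88.2 in tumour hearts, 87.3, 51.9 and 81.8 in trained hearts and 64.2, 70.1 and 90.8 in control hearts. Klf15 (gene ID 66277), a Krüppel-like factor of heart muscle that acts on amino acid and lipid metabolism, had 73.6, 74.5 and 83.9 in tumour trained hearts, 31.0, 60.8 and 82.3 in tumour hearts, 85.6, 96.3 and 65.1 in trained hearts and 75.9, 55.0 and 52.0 in control hearts. In both genes tumour 1 was the lowest of the 12 libraries, tumour 3 the highest of the tumour group, and all 4 groups overlapped. The log2 difference for tumour against control was -0.30 ± 0.28 for Klf9 and -0.07 ± 0.30 for Klf15. With tumour 3 alone it was 0.24 and 0.44, so the direction of both depended on the tumour hearts with melanocyte signal, whose part was not tested. Between tumour trained and tumour hearts Klf9 differed by 0.61 ± 0.28 and Klf15 by 0.42 ± 0.30, and with tumour 3 alone by 0.07 and -0.11.

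Tsc22d3 (gene ID 14605, also called GILZ), a leucine zipper protein that carries part of the anti-inflammatory action of glucocorticoids, had 74.4, 105 and 109 scaled CPM in tumour trained hearts, 29.9, 66.6 and 85.9 in tumour hearts, 61.3, 63.5 and 84.5 in trained hearts and 82.9, 88.3 and 88.0 in control hearts. The 3 tumour hearts ranked as their cardiomyocyte sums did, as they also did in Nr3c1, Sgk1, Klf9, Klf15, Pik3r1 and Hsd11b1. Of these hearts tumour 3 alone reached the control range of Tsc22d3. The log2 difference was -0.51 ± 0.31 for tumour against control and 0.67 ± 0.31 for tumour trained against tumour, and 0.00 and 0.15 with tumour 3 alone.

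Sgk1 (gene ID 20393), a kinase that regulates ion channels and carriers, had 102, 142 and 149 scaled CPM in tumour trained hearts, 57.2, 114 and 158 in tumour hearts, 111, 135 and 152 in trained hearts and 124, 349 and 319 in control hearts. The level stood out in control 2 and control 3, the libraries with the high immediate early genes, and control 1 lay within the range of the other groups. The log2 difference for tumour against control was -1.27 ± 0.40, -0.73 with tumour 3 alone and -0.20 without control 2 and control 3. The part of the immediate early genes in it was not tested. Between tumour trained and tumour hearts Sgk1 differed by 0.26 ± 0.40, and by -0.29 with tumour 3 alone.

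Ddit4 (gene ID 74747), an inhibitor of mTORC1 signalling that stress and glucocorticoids induce, had 13.4, 35.3 and 31.8 scaled CPM in tumour trained hearts, 35.8, 42.7 and 22.9 in tumour hearts, 25.4, 31.2 and 31.5 in trained hearts and 38.1, 37.0 and 42.4 in control hearts. The 3 controls were close together and lay above all trained and all tumour trained hearts, while the tumour hearts overlapped them. The log2 difference was -0.21 ± 0.31 for tumour against control and -0.33 ± 0.32 for tumour trained against tumour. With tumour 3 alone they were -0.76 and 0.21, so that the second turned.

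Pik3r1 (gene ID 18708), the regulatory subunit of phosphoinositide 3-kinase, had 110.1, 116 and 111 scaled CPM in tumour trained hearts, 81.2, 104 and 157 in tumour hearts, 96.7, 55.7 and 90.1 in trained hearts and 70.8, 69.8 and 59.9 in control hearts. All tumour and all tumour trained hearts lay above all controls, and trained 2 was the lowest library of all. The log2 difference for tumour against control was 0.77 ± 0.25, which was not called, and 1.24 with tumour 3 alone, which was. Tumour trained hearts differed from tumour hearts by -0.02 ± 0.25, and by -0.49 from tumour 3 alone.

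Calls at an adjusted p below 0.05 are given beside the share of all genes called. For tumour against control 1 of the 10, Fkbp5, was called higher and none lower, where 6.79% of the 12778 genes were called, 5.33% higher and 1.46% lower. For tumour trained against tumour Nr3c1 was called higher and Fkbp5 lower, beside 9.05% of all genes, 1.79% higher and 7.25% lower. For the difference of the tumour effect with training Fkbp5 was 1 of 3 genes called (0.0235%), and that call held in 9 of 20 alternatives; the other 9 members ran from -0.61 (Zbtb16) to 1.25 (Sgk1) on the log2 scale. Without tumour 3, 5 members were called for tumour against control, beside 53% of the 13289 genes then tested. DESeq2 called 5 members, beside 17.8% of all genes. As the choice of members used these 3 contrasts, nothing is read from the shares. The median log2 difference of the 10 was -0.14 for tumour against control, beside 0.11 over all genes tested, and 0.12 for tumour trained against tumour, beside -0.04.

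Non-overlap was also counted by libraries. As the choice of members used these values, nothing is read from these counts either. For tumour against control, Fkbp5 and Pik3r1 had all tumour hearts above all controls, as had 14.2% of all genes, and Nr3c1 had all of them below, as had 11.8%. For tumour trained against tumour, Nr3c1 was wholly higher, as were 13.5%, and Fkbp5 wholly lower, as were 14.5%. Taken 1 at a time, tumour 1 lay above all 3 controls in 2 of the 10 genes and below in 7, where it did so in 48.2% and 42% of all genes. Tumour 2 lay above in 5 and below in 4 (45.4% and 33.6% of all genes), and tumour 3 above in 5 and below in 2 (31.9% and 29%). Tumour 1 was the lowest of the 12 libraries in 6 of the 10 genes, as it was in 35.1% of all genes tested. The median log2 difference of the 10 genes from their control mean was 0.21, 0.30 and 0.36 in the tumour trained libraries. It was -0.81, 0.07 and 0.35 in tumour and -0.0040, -0.35 and 0.02 in trained libraries. Over all genes tested the medians were 0.02, 0.00 and 0.01 in tumour trained, 0.11, 0.09 and 0.02 in tumour and 0.01, -0.01 and 0.01 in trained libraries.

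**Figure D2:**
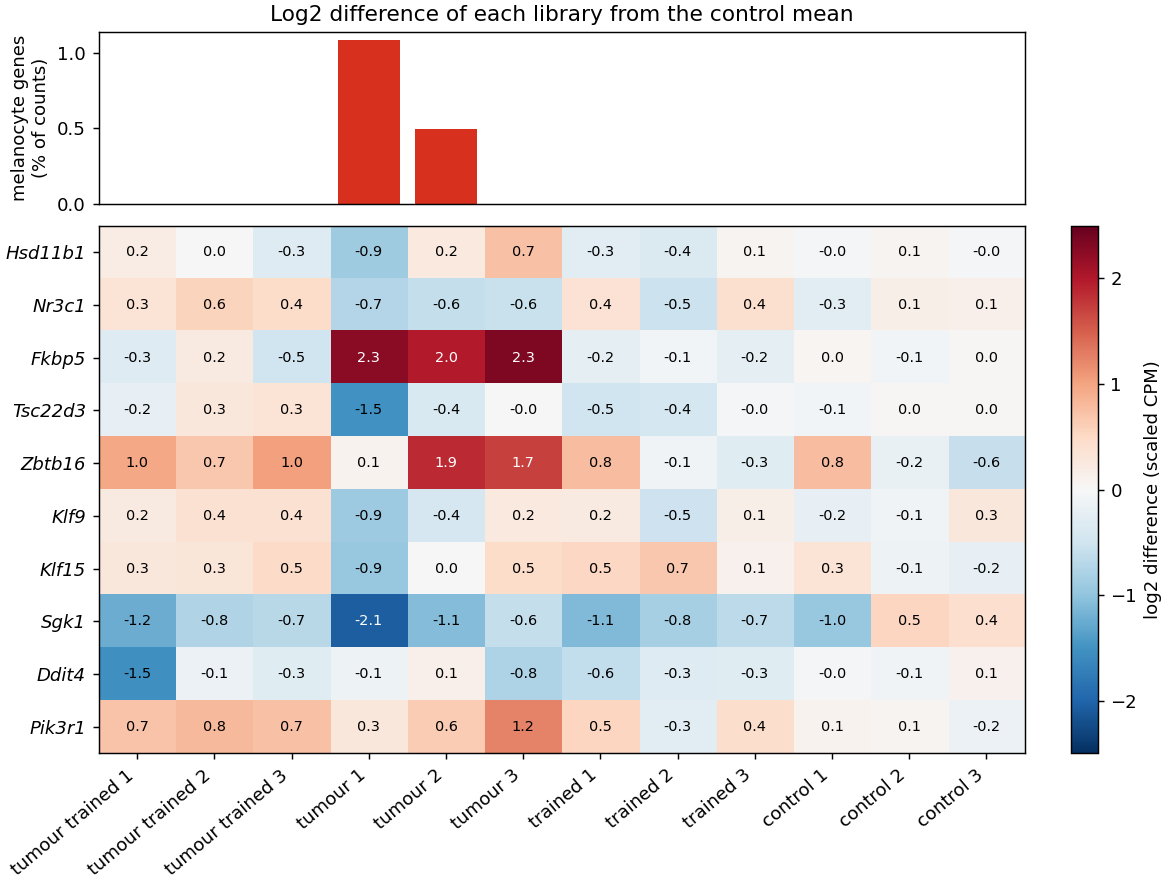
Log2 difference from the control mean for the 10 genes (rows) in each of the 12 libraries (columns), with the share of counts in 5 melanocyte genes, in percent, as bars. Fkbp5 is high in all 3 tumour libraries, including tumour 3, where the melanocyte genes take 0.00166% of counts, against 1.08% in tumour 1 and 0.496% in tumour 2.

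**Figure D3:**
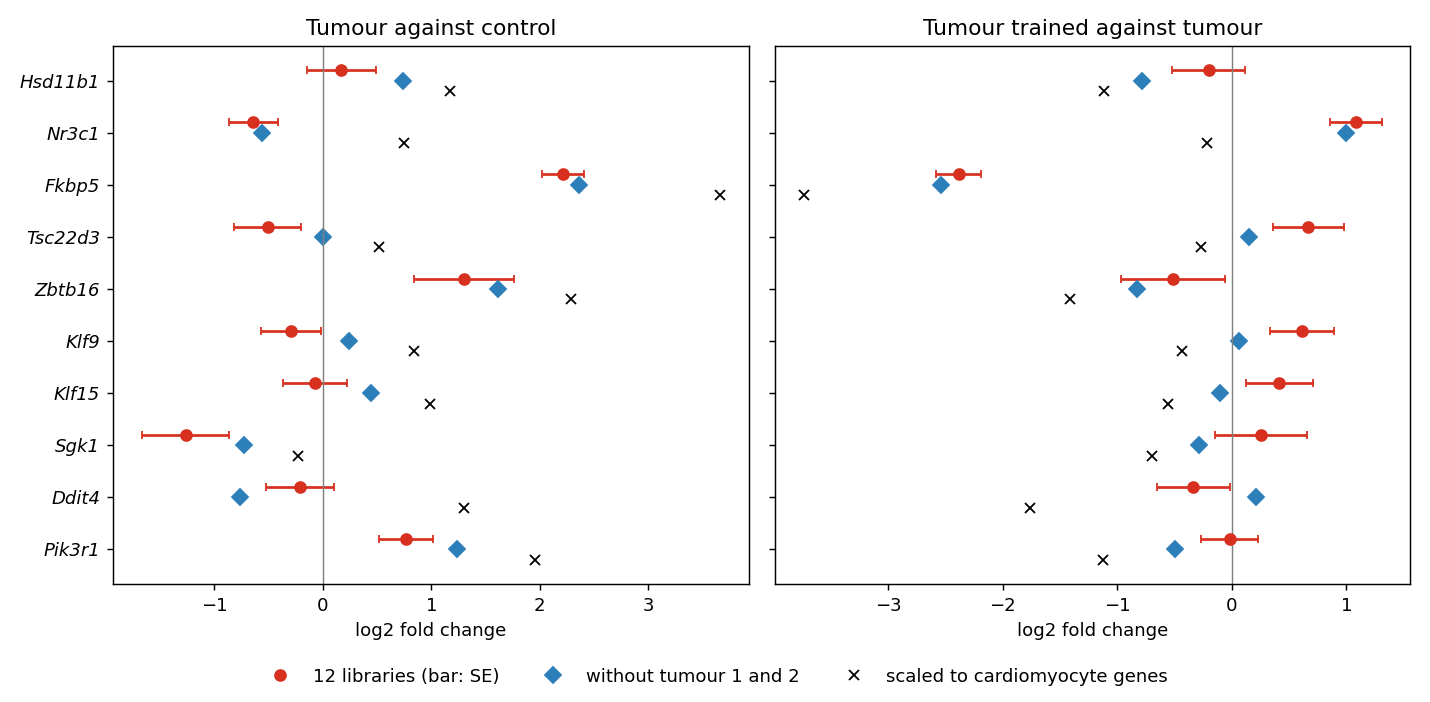
Log2 difference of the 10 genes for tumour against control and tumour trained against tumour, in the fit of 12 libraries (bars are SE), without tumour 1 and tumour 2, and with libraries scaled to cardiomyocyte genes. Fkbp5 runs from 2.21 to 3.66 and from -3.74 to -2.38 over the 3. Nr3c1 goes from 1.08 to -0.22 for tumour trained against tumour under the cardiomyocyte scaling. That scaling moves the median of all genes in the direction of Fkbp5, so it could not have turned Fkbp5.

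Scaling to cardiomyocyte genes asks how the genes stood relative to heart muscle transcripts. It moved the median of all genes to 1.53 for tumour against control and to -1.38 for tumour trained against tumour on the log2 scale. Fkbp5, at 3.66 and -3.74, then stood above and below these medians by more than the other members. Nr3c1 had 0.75 and -0.22, of which the first is below the all-gene median and the second above it.

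The rule read the levels of all 12 libraries, so the members' values in the remaining 3 comparisons are also a description, and no p is printed for them. For trained against control, which asks what running did without a tumour, edgeR's quasi-likelihood test called none of the 10. It called no gene of the 12778 (0%), while 278 genes had an unadjusted p below 0.05. DESeq2 called 3 genes and no member. Fkbp5 differed by -0.18 ± 0.19 on the log2 scale. Sgk1 differed by -0.99 ± 0.40, with all 3 trained hearts below control 2 and control 3 and 1 of 3 below control 1. Without control 2 and control 3 it came to 0.10. The 3 trained hearts lay below all controls in Ddit4, as in 5.45% of genes, and above all controls in no member, beside 4.04% of genes. Ddit4 differed by -0.42 ± 0.32 on the log2 scale, and the other 7 members ran from -0.31 (Tsc22d3) to 0.43 (Klf15). Over the 20 alternatives Klf15 ran from 0.12 to 0.62. Without trained 2, Nr3c1 moved to 0.35, compared with 0.12 ± 0.22 over all libraries, and Pik3r1 to 0.46, compared with 0.27 ± 0.25.

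The comparison of tumour trained with trained hearts asks what the cells did in mice that ran. None of the 10 and no gene (0%) was called, while 150 genes had an unadjusted p below 0.05. DESeq2 called 3 genes and no member. Fkbp5 differed by 0.01 ± 0.19. The largest difference was that of Zbtb16, 0.69 ± 0.46. Pik3r1, at 0.48 ± 0.25, had all tumour trained above all trained hearts, as had 7.92% of genes, and no member had them all below, as had 8.04%. Without trained 2 the difference of Pik3r1 was 0.27, and that of Nr3c1 was 0.07, compared with 0.32 ± 0.22 over all libraries. The other 6 members ran from -0.13 (Ddit4) to 0.47 (Tsc22d3).

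Between tumour trained and control hearts, none of the 10 and no gene (0%) was called, while 826 genes had an unadjusted p below 0.05. DESeq2 called 8 genes and no member. Fkbp5 differed by -0.17 ± 0.19. Pik3r1 differed by 0.75 ± 0.25 and Sgk1 by -1.01 ± 0.40, and without control 2 and control 3 Sgk1 came to 0.08. Nr3c1 (log2 0.44 ± 0.22) and Pik3r1 had all tumour trained hearts above all controls, as had 21.9% of genes, and Ddit4 (log2 -0.55 ± 0.32) had them below, as had 17.4%. The other 5 members ran from -0.03 (Hsd11b1) to 0.79 (Zbtb16). Over the 20 alternatives Zbtb16 ran from 0.13 to 1.26 and Nr3c1 from 0.30 to 0.73. The tumour trained group shares its libraries with the comparisons above, so that these values are not independent of them.

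The genes nearest to Fkbp5 over the 12 libraries were ranked by the root mean square difference between log2 profiles, each centred on its mean. The libraries differed in depth and makeup as described above, and makeup was not adjusted for in the ranking. In order the nearest genes were Mt1 (0.37), a metallothionein that glucocorticoids and metals induce, Rhou (0.45), Epop (0.46), Ftl1 (0.51), the ferritin light chain, Fam107a (0.51), Trim62 (0.51), Suv39h1 (0.52) and Fen1 (0.53). The other 9 members lay farther away, between 0.96 for Pik3r1 and 1.42 for Sgk1, at ranks 4078 to 11383 of 12778 genes. Mt1 had 165, 167 and 183 scaled CPM in tumour trained hearts, 486, 436 and 792 in tumour hearts, 159, 175 and 173 in trained hearts and 173, 173 and 199 in control hearts. Fam107a, which is also induced by glucocorticoids, had 4.64, 8.51 and 8.09 scaled CPM in tumour trained hearts, 13.4, 18.7 and 21.7 in tumour hearts, 4.35, 3.90 and 6.27 in trained hearts and 7.84, 4.47 and 6.30 in control hearts. In both, tumour 3 was the highest of the tumour hearts. Rhou, Fen1 and Suv39h1 ran the other way over tumour 1, 2 and 3, in the rank order of the melanocyte genes and the reverse of the cardiomyocyte genes. Rhou had 55.9, 26.0 and 19.7 scaled CPM there, Fen1 38.1, 23.5 and 9.21 and Suv39h1 39.4, 22.7 and 11.7. The levels of Epop, Ftl1 and Trim62 are not given here, and these genes are not placed on either side.

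**Figure D4:**
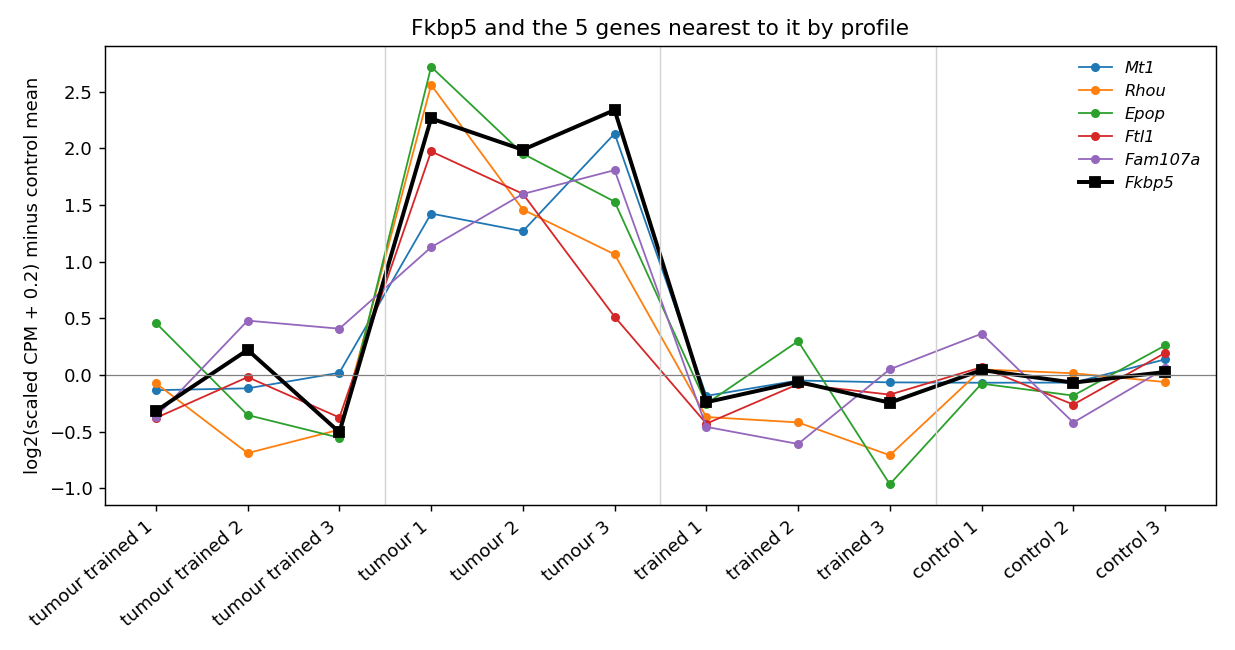
Log2 level minus the control mean for Fkbp5 and the 5 genes with the nearest profiles, over the 12 libraries in the order tumour trained, tumour, trained and control. All 6 lines are raised in the 3 tumour libraries; Mt1 (0.37) is the nearest by root mean square difference.

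The other genes of the pathway, 57 in the table and 54 tested, were drawn up with earlier results of these data known. For tumour against control 9 rose (Angptl4, Anxa1, Arrdc2, Hif3a, Lcn2, Maoa, Map3k6, Mt1 and Mt2) and 3 fell (Errfi1, Irs2 and Nfkbia), 12 in all, beside 6.79% of all genes called, with a median log2 difference of 0.10 beside 0.11 over all genes. All 12 belong to the 34 tested of a list of 36 further targets, and neither the 2 tested genes of receptor and hormone supply, nor the 9 chaperones, nor the 9 coregulators had a gene called. At an unadjusted p below 0.05 there were 1, 4 and 2 genes of these, beside 4395 of all 12778 genes tested. Without control 2 the count was 1 of 54, beside 4 genes in all (0.0301%), and without tumour 3 it was 27 of 54, beside 53% of all genes tested. Against tumour hearts, tumour trained hearts had 1 gene that rose (Bcl6) and 7 that fell (Angptl4, Cdkn1a, Lcn2, Maoa, Map3k6, Mt1 and Mt2), beside 9.05% of all genes called, and the median was -0.08 beside -0.04. In the 3 comparisons without the untrained tumour hearts none of the 54 was called by edgeR. At an unadjusted p below 0.05 there were 8 in trained against control hearts, beside 278 of all genes. There were 4 in tumour trained against trained, beside 150, and 7 in tumour trained against control, beside 826. DESeq2 called 1 in the last of these.

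Mt2, a metallothionein like Mt1, averaged 25.5 ± 3.98 scaled CPM in tumour trained, 236 ± 15.7 in tumour, 16.6 ± 3.03 in trained and 15.4 ± 0.883 in control hearts (SD, n = 3 each). It rose by 3.93 ± 0.18 on the log2 scale for tumour against control (edgeR adjusted p = 1.5e-06). Mt2 was the 1 pathway gene besides the members called for the difference of the tumour effect with training, at -3.31 ± 0.24 (edgeR adjusted p = 0.000205). It was singled out after its values were seen, and the lists were drawn up with earlier results known. The p-values of Mt2 and of the other list genes are therefore a description. Hif3a, a hypoxia-inducible factor subunit, had 1.90, 4.09 and 2.52 scaled CPM in tumour trained hearts, 3.22, 4.03 and 4.88 in tumour hearts, 1.29, 1.64 and 1.70 in trained hearts and 1.24, 0.78 and 0.63 in control hearts. It rose by 2.17 ± 0.37 for tumour against control (edgeR adjusted p = 0.0391). The control values of Hif3a were low, as 3 counts amounted to between 0.277 and 0.297 CPM in the control libraries. Tumour trained 2 lay within the tumour range of Hif3a. Arrdc2, an arrestin-domain protein, rose by 1.19 ± 0.23 (edgeR adjusted p = 0.0391). Without control 2 and control 3, Hif3a came to 1.67 and Arrdc2 to 1.08 and neither was called (edgeR adjusted p = 0.482 for both), while Mt2 was called at 4.00 (edgeR adjusted p = 0.0114).

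Errfi1, a feedback inhibitor of the EGF receptor, fell by 1.69 on the log2 scale (edgeR adjusted p = 0.0490), with the tumour hearts at 32.1, 51.1 and 44.6 scaled CPM and the controls at 44.6, 223 and 143. Without control 2 and control 3 the log2 difference of Errfi1 was -0.09 (edgeR adjusted p = 0.898). The clock gene Per1 and the phosphatase gene Dusp1 had the same 2 controls as their highest libraries and were not called for tumour against control (log2 -0.68 ± 0.38 and -1.47 ± 0.58, edgeR adjusted p = 0.214 and 0.105). Pdk4, which holds back pyruvate oxidation, had 752, 1391 and 3995 scaled CPM in tumour hearts and 375, 764 and 976 in control hearts, a log2 difference of 1.54 ± 0.60 (edgeR adjusted p = 0.103), and with tumour 3 alone it was called at 2.51 (edgeR adjusted p = 0.0367).

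Around the receptor, Nr3c2, the mineralocorticoid receptor, had 3.46, 8.89 and 11.2 scaled CPM in tumour hearts and 14.4, 17.0 and 14.3 in control hearts (log2 -0.97 ± 0.33, edgeR adjusted p = 0.0792). The 3 tumour hearts ranked in the order described for Tsc22d3, and tumour trained hearts differed from them by 1.11 ± 0.33 (edgeR adjusted p = 0.0561). Hsp90aa1, the inducible Hsp90, had 923, 229 and 58.0 scaled CPM in tumour 1, 2 and 3 and 58.1, 70.9 and 76.7 in control hearts, a log2 difference of 2.56 ± 0.75 (edgeR adjusted p = 0.0595) that came to -0.23 with tumour 3 alone (edgeR adjusted p = 0.921). Hsp90ab1 (log2 0.30 ± 0.20, edgeR adjusted p = 0.271), Fkbp4, a cochaperone that opposes Fkbp5 (log2 -0.40 ± 0.17, edgeR adjusted p = 0.131), H6pd, which supplies the cofactor of Hsd11b1 (log2 0.03 ± 0.22, edgeR adjusted p = 0.923), Cebpd (log2 0.22 ± 0.28, edgeR adjusted p = 0.575) and Lpin1 (log2 -0.83 ± 0.45, edgeR adjusted p = 0.197) were not called for tumour against control. Hsd11b2, which inactivates the hormone, did not pass the filter.

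**Figure D5:**
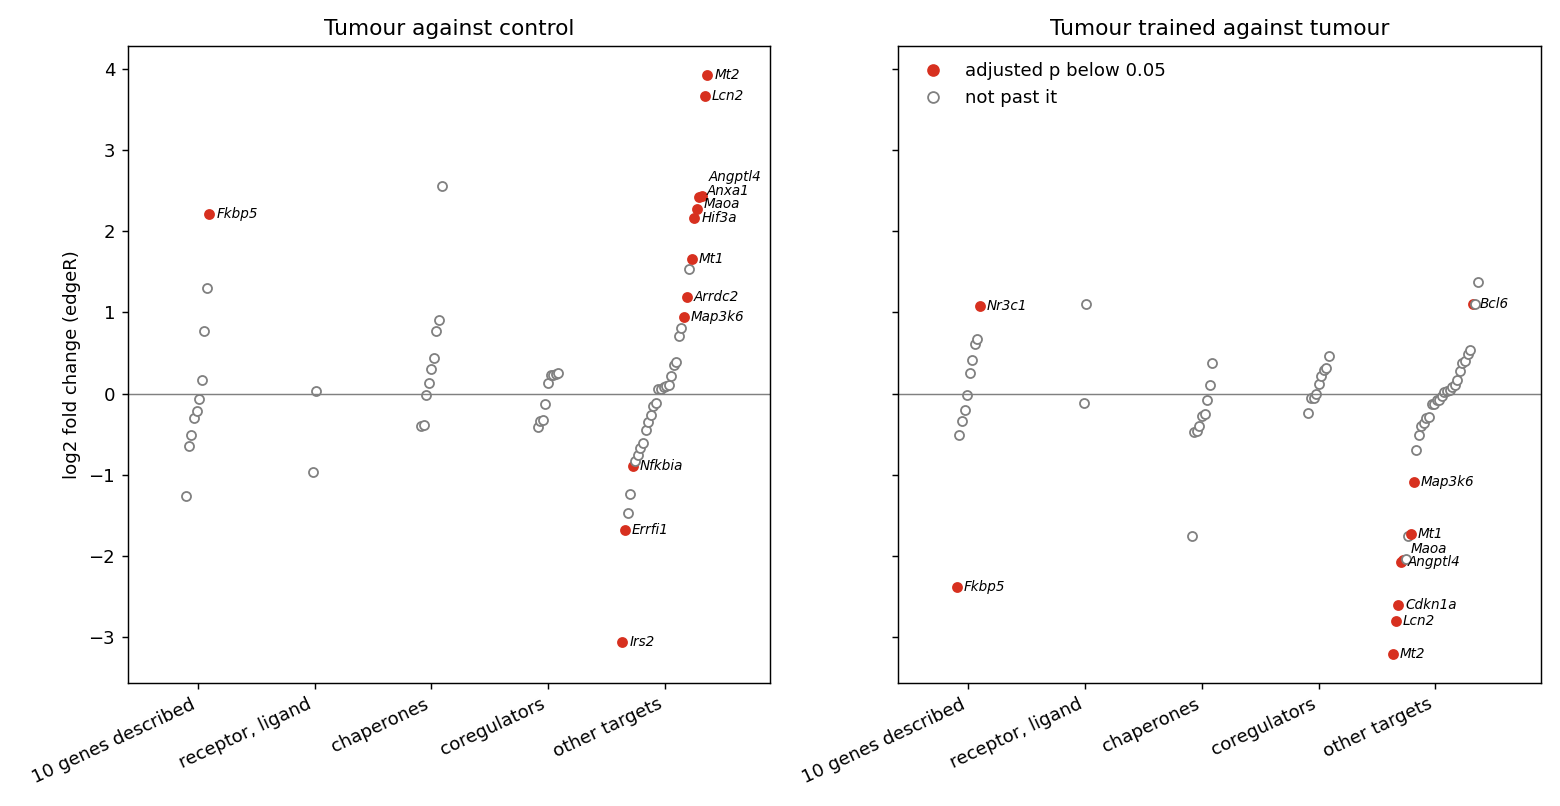
Log2 difference of the 10 members and of the genes of 4 further lists (receptor and hormone supply, chaperones, coregulators, further targets), for tumour against control and tumour trained against tumour; filled points have an adjusted p below 0.05 and are named. The called genes beyond the members all lie in the list of further targets, 12 for tumour against control and 8 for tumour trained against tumour.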

How the data were processed

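Sample titles gave the groups and replicate numbers. The values are estimated counts per gene (7.09% to 8.92% of a library's values are not whole), deposited by the authors as 1 table and not normalized. HISAT2 2.2.1 and featureCounts, and the builds GRCm39 and mm10, are named in the submitters' processing notes. Which build gave the table, the annotation and the strand setting are not stated in the sources used here, and reads of overlapping or antisense genes may therefore be mixed. A total of 24 symbols that had become dates were restored from gene IDs.

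Counts were rounded, scaled with TMM and tested with edgeR 4.0.16 (R 4.3.3, limma 3.58.1) in 1 quasi-likelihood fit of 12 libraries with 8 residual degrees of freedom. The default filter left 12778 of 17397 genes, removing 4619, and adjusted p-values are Benjamini-Hochberg over all 12778. A gene was called at an adjusted p below 0.05. The members and lists were chosen with earlier results of these data known. No p is therefore printed for a member, although a test over all genes had been planned for the 3 comparisons without the untrained tumour hearts. All 10 members are named in each of these comparisons, with 14 further pathway genes named by symbol whatever their result, the 8 genes nearest to Fkbp5, and called genes of the lists. Mt2 was singled out after its values were seen, as were the 5 immediate early genes. The procedure was tested on simulated data with 200 changed genes. The floor of 3 counts reflects counting error alone. DESeq2 1.42.0, 1 alternative of 20, used the same counts. Promoters are RefSeq sequences.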

Additional observations from a re-analysis of the deposited data

Results flagged for a closer look

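The effect of the tumour on Fkbp5 differed between untrained and trained mice by -2.20 on the log2 scale, by the test of that difference in the fit of all 12 libraries. The gene was chosen with this contrast known, and the value is therefore a description.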

How the results depend on the processing

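Of 600 alternative values of the members where the untrained tumour hearts enter, 551 moved by less than 1 SD and 49 by more or reversed as a called value. The SD is the spread of a gene's log2 level between replicates, within the groups compared. It takes in the spread among the 3 unlike tumour hearts, so a move of less than 1 SD can still be large. The sign changed in 51 of the 600 values, of which the 1 called value was Nr3c1 for tumour trained against tumour, at -0.22 with cardiomyocyte scaling. In the 3 comparisons without those hearts 576 of 600 values kept their direction and 24 changed sign, none past the threshold. Fkbp5 for tumour trained against trained came to -0.0119 with DESeq2 size factors and -0.0132 with DESeq2. With cardiomyocyte scaling Sgk1 for tumour trained against trained came to 0.0552 and Hsd11b1 for tumour trained against control to 0.0583. Without control 2 and control 3, an alternative added after seeing the data, Zbtb16 came to -0.56, Sgk1 to 0.0970 and Klf9 to 0.195 for trained against control, and Sgk1 to 0.0771 for tumour trained against control. Leaving out 1 library, the ranges were -0.245 to 0.148 (Fkbp5), -0.146 to 0.132 (Sgk1), -0.391 to 0.193 (Ddit4) and -0.248 to 0.0352 (Klf15) for tumour trained against trained, -0.158 to 0.0803 for Hsd11b1 for tumour trained against control, and -0.307 to 0.571 (Zbtb16), -0.175 to 0.155 (Klf9) and -0.0415 to 0.350 (Nr3c1) for trained against control. The cause was not tested.

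Calls are given in the order tumour against control, tumour trained against tumour, and difference of the tumour effect with training. They numbered 868, 1156 and 3 genes, 1, 2 and 1 members, and 12, 8 and 1 other pathway genes. DESeq2 called 2272, 2378 and 269 genes, 5 members for tumour against control and 21, 13 and 6 pathway genes, besides 3 genes for trained against control, 3 for tumour trained against trained and 8 for tumour trained against control, with 1 pathway gene in the last. A minimum of 50 counts in 3 libraries left 45 and 623 genes and 5 pathway genes for tumour against control. Cardiomyocyte scaling gave 9147 (9090 higher), 7284 (28 higher) and 1 genes, 5, 5 and 0 members and 38, 37 and 0 pathway genes. Without tumour 1 and tumour 2 there were 182, 93 and 32 genes, 2 and 1 members and 4 pathway genes for the difference, with 1 gene for trained against control and 5 for tumour trained against control. Without control 2 and control 3 there were 1, 3 and 0 genes, 0, 1 and 0 members and 1, 1 and 0 pathway genes. Leaving out 1 library gave 4 to 7044, 3 to 6619 and 2 to 4002 genes, 1 to 5, 1 to 5 and 0 to 5 members and 1 to 27, 1 to 23 and 1 to 17 pathway genes, each highest without tumour 3, and 0 to 1 genes for trained against control and for tumour trained against control.

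The replicate block left 16 and 18 genes called, 1 member for tumour trained against tumour and 0 for the difference, and 3 and 3 pathway genes. Same-numbered libraries had correlations of -0.268 to 0.118, which gave no sign of pairing. Differently numbered libraries were not compared, and 3 libraries per group cannot exclude it.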
